A study of Rattus norvegicus with 24 samples.

Results

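The genes considered are the precursors of the opioid, tachykinin and CART peptides and the receptors of the opioid and substance P families in the rat, 8 of the 17711 rows of the deposited table. Members were taken by symbol, namely the peptide precursors Penk, Pdyn, Tac1 and Cartpt and the receptors Oprm1, Oprd1, Oprk1 and Tacr1, and each had a single row. RNA came from the striatum and from whisker follicles, the hair follicles of the snout, of male Sprague–Dawley rats, 6 of which self-administered methamphetamine (MA) and 6 saline (SA). Rats in the MA group received 0.05 mg/kg in each intravenous infusion earned by a lever press, in sessions of 2 h over 16 days, and rats in the SA group pressed for saline alone. All rats had first been trained on food pellets, and tissue was taken after the last phase of the protocol. The dissected pieces held all cell types of the tissue, and none of the sources used here names the subregion of the striatum. This gave 24 libraries of polyadenylated RNA, 6 per treatment and tissue, with levels in FPKM (fragments scaled to the length of the transcript and to the mapped fragments of the library). The libraries of a group are named here by the index of their column, 0 to 5, since no source links that index to a rat number.

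Most neurons of the striatum are GABAergic medium spiny neurons, which fall into 2 classes. Neurons of the direct pathway carry the D1 dopamine receptor (Drd1) and make substance P from Tac1 and dynorphins from Pdyn, whereas neurons of the indirect pathway carry the D2 dopamine receptor (Drd2) and make enkephalins from Penk. Enkephalins act mainly on delta (Oprd1) and mu (Oprm1) receptors, dynorphins on the kappa receptor (Oprk1) and substance P on the neurokinin 1 receptor (Tacr1), which cholinergic and somatostatin interneurons carry. Cartpt encodes the CART peptide, known above all from the ventral striatum and the hypothalamus. These peptide genes are classical readouts of dopamine transmission, and psychostimulants acting on dopamine are known to change them, so the comparison of MA with SA in the striatum asks whether their transcripts differed after self-administration.

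The promoters of Pdyn, Tac1 and Cartpt are shown, the peptide precursors for which a promoter was at hand. Of the 8 members, 6 had an entry in the RefSeq promoters used (build GRCr8), Oprm1 with 2 entries, which gives 7 promoters. Penk and Oprk1 had no entry there. Each line holds the 250 bases before the start of the gene, 5′ to 3′ on the strand of the gene. They lie at chr3:137366504-137366753 (minus strand) for Pdyn, chr4:36645333-36645582 (plus strand) for Tac1 and chr2:32991236-32991485 (minus strand) for Cartpt. Capitals mark matches, on either strand, to the cAMP response element TGACGTCA, its core TGACG, the AP-1 element TGANTCA or the TATA box TATAAA.
Pdyn: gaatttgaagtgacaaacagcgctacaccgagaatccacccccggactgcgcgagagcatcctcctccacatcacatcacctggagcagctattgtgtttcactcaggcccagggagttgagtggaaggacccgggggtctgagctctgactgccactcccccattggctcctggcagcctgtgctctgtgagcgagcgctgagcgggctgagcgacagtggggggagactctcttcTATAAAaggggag
Tac1: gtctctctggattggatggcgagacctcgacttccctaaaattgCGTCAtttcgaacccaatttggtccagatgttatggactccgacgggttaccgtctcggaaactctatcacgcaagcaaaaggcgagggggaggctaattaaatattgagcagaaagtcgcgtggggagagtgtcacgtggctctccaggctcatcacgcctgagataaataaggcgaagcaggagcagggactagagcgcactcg
Cartpt: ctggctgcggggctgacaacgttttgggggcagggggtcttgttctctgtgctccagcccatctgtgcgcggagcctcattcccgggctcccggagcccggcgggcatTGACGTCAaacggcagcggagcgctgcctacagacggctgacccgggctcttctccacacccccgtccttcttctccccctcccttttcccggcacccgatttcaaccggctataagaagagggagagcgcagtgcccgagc
The Cartpt promoter held the full cAMP response element, whose first base lay 142 bases before the start, and the core within it on both strands. That element stood in 1.59% of the 33469 rat promoters of this length. The Tac1 promoter held only the core, on the opposite strand, 206 bases before the start, a motif found in 18.2% of promoters. The Pdyn promoter held a TATA box 13 bases before the start, which 12.9% of promoters have somewhere in this window. Of the receptors, Tacr1 held the core and a TATA box, and no match stood in the promoters of Oprm1 and Oprd1. None of the 7 promoters held the AP-1 element, which occurs in 6.34% of promoters. These matches describe letters in a window of sequence and say nothing of the binding of a factor.

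Penk was by far the most abundant member in the striatum, and all 8 were detected in each of the 12 striatal libraries. The median level was 1303 FPKM for Penk, 279.6 FPKM for Tac1, 95.8 FPKM for Pdyn and 5.39 FPKM for Cartpt. Receptor transcripts were much scarcer, with medians of 3.45 FPKM for Tacr1, 3.05 FPKM for Oprk1, 1.71 FPKM for Oprd1 and 0.457 FPKM for Oprm1. In this order, the ranges of Penk and Tac1 were the only neighbouring ones that did not overlap. Within a library, Tac1 was above Pdyn in 12 of 12 cases and Pdyn above Cartpt in 11, whereas Cartpt and Tacr1, and Tacr1 and Oprk1, stood in that order in 8 of 12. Penk made up 74.4% to 80.5% of the summed level of the 4 precursors in SA, with a median of 78.5%, and 65.6% to 78.5% in MA, with a median of 74.6%.

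**Figure D1:**
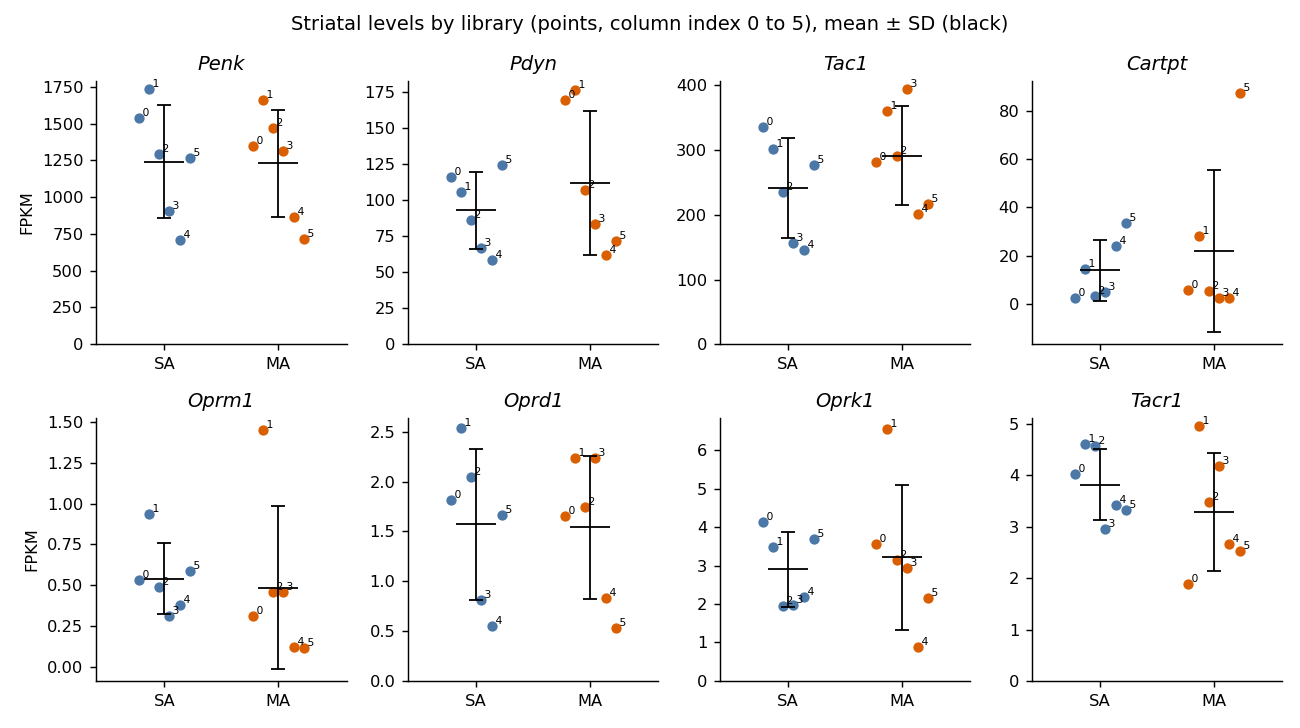
FPKM of each member in the striatum of SA rats (blue) and MA rats (orange). Points are single libraries with their column index, the black line and bars give the mean ± SD (n = 6), and each panel has its own linear axis. The points of both treatments overlap in all 8 panels, and SA libraries 3 and 4 and MA libraries 4 and 5 are low for Penk, Pdyn, Tac1 and Oprd1.

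No member differed in level between MA and SA rats in the striatum past the threshold of a test. Penk, the enkephalin precursor, had almost the same mean in both treatments, Tac1 and Pdyn had slightly higher means in MA, and Tacr1 a slightly lower one, all within the spread between libraries. Of the 8 members, 7 had a mean of at least 1 FPKM and were tested by limma on log2(FPKM + 1), and Oprm1, at a mean of 0.511 FPKM, was below this limit. None of the 7 passed an adjusted p of 0.05 with a fold of at least 1.5, against 0.00943% of the 10607 genes tested (1 gene), and none had an unadjusted p under 0.05, against 8.26% of all genes. The groups overlapped for all 8 members, as they did for all but 0.358% of the genes tested. Adjusted p-values below are those of limma with Benjamini-Hochberg adjustment over all genes tested, exact p-values come from all assignments of the 12 libraries to groups of 6 (two-sided, smallest possible value 0.00216), and differences are MA minus SA on the log2(FPKM + 1) scale with their SE.

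Penk ranged from 708 to 1738 FPKM in SA (median 1278 FPKM) and from 715 to 1659 FPKM in MA (median 1330 FPKM). The lowest libraries of both groups and the highest libraries of both groups were close, so the ranges coincided. The means were 1240 ± 383 FPKM (SD, n = 6) in SA and 1229 ± 364 FPKM (SD, n = 6) in MA, a difference of -0.01 (SE 0.25, 95% interval -0.55 to 0.53, adjusted p = 0.993, exact p = 0.959). An increase or decrease of up to about 0.5 on the log2 scale therefore lies within the interval.

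Tac1, the precursor of substance P and neurokinin A, ranged from 145 to 335 FPKM in SA (median 256 FPKM) and from 201 to 394 FPKM in MA (median 286.5 FPKM). The 2 lowest libraries were SA libraries 3 and 4 and the highest was MA library 3, but the groups overlapped over most of their range. The difference of 0.29 (SE 0.23, 95% interval -0.21 to 0.80) between means of 242 ± 77.8 FPKM and 291 ± 76.5 FPKM (SD, n = 6 each) was not significant (adjusted p = 0.738, exact p = 0.273). Without SA libraries 3 and 4 the difference was -0.01 (adjusted p = 0.983), a reading made after the values were seen.

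Pdyn, the dynorphin precursor, ranged from 58.1 to 124 FPKM in SA (median 95.8 FPKM) and from 62.0 to 176 FPKM in MA (median 94.9 FPKM). MA libraries 0 and 1 stood above all SA libraries, while the other MA libraries lay within the SA range. The means of 92.7 ± 26.8 FPKM and 111 ± 49.7 FPKM (SD, n = 6 each) differed by 0.20 (SE 0.28, 95% interval -0.40 to 0.80, adjusted p = 0.865, exact p = 0.530). Without SA libraries 3 and 4 this difference was -0.06 (adjusted p = 0.949).

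Cartpt was the most variable member, with a median of 9.64 FPKM in SA (range 2.53 to 33.6 FPKM) and of 5.39 FPKM in MA (range 2.16 to 87.6 FPKM). The MA mean of 21.8 ± 33.7 FPKM (SD, n = 6) rested on library 5, the 1 library above 33.6 FPKM, and 4 of the 6 MA libraries lay below the SA median. On the log2 scale the difference from the SA mean of 13.8 ± 12.8 FPKM was -0.02 (SE 0.85, 95% interval -1.85 to 1.81, adjusted p = 0.995, exact p = 0.981), so that changes of more than 3-fold in either direction lie within the interval.

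The delta receptor Oprd1 ranged from 0.552 to 2.54 FPKM in SA (median 1.74 FPKM) and from 0.529 to 2.24 FPKM in MA (median 1.70 FPKM), a difference of -0.01 (SE 0.24, adjusted p = 0.990, exact p = 0.957). Its lowest libraries were those in which Penk, the precursor of its ligands, was lowest. The kappa receptor Oprk1 ranged from 1.95 to 4.14 FPKM in SA (median 2.84 FPKM) and from 0.893 to 6.56 FPKM in MA (median 3.05 FPKM), a difference of 0.02 (SE 0.27, adjusted p = 0.985, exact p = 0.946). The neurokinin 1 receptor Tacr1 ranged from 2.96 to 4.62 FPKM in SA (median 3.72 FPKM) and from 1.88 to 4.97 FPKM in MA (median 3.07 FPKM), a difference of -0.20 (SE 0.17, 95% interval -0.56 to 0.16, adjusted p = 0.750, exact p = 0.292). The spread was wider in MA than in SA for Oprk1 and Tacr1, with no test of this difference made. The mu receptor Oprm1 ranged from 0.312 to 0.935 FPKM in SA (median 0.510 FPKM) and from 0.113 to 1.45 FPKM in MA (median 0.383 FPKM), with overlapping groups (exact p = 0.623). It was fitted only without the limit on low levels, with a difference of -0.10 (adjusted p = 0.907). At these levels, and with no read counts in the table, the counting error behind the receptor values is unknown.

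**Figure D2:**
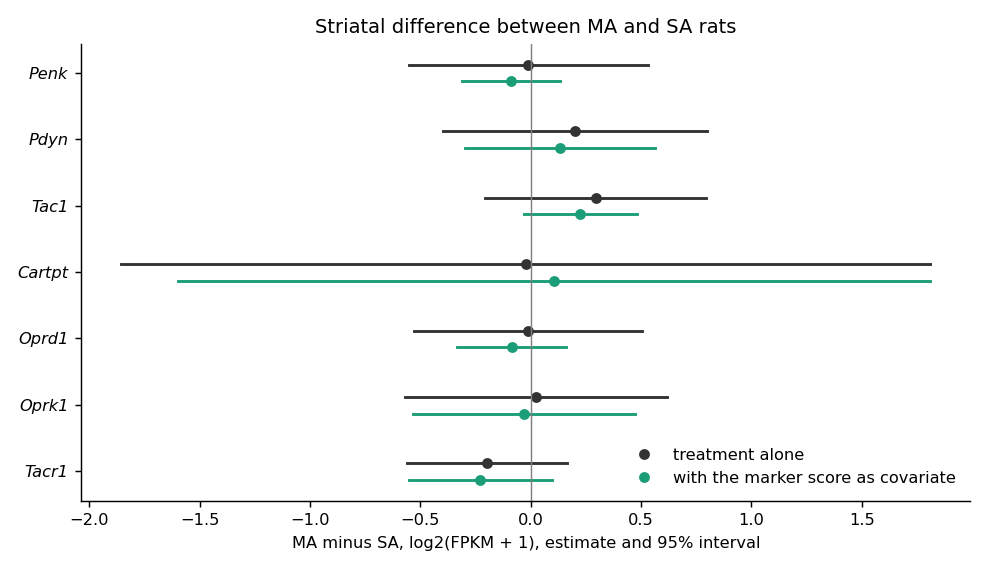
Difference between MA and SA in the striatum for the 7 members tested, as estimate (point) and 95% interval (line) on the log2(FPKM + 1) scale, from treatment alone (black) and with the medium spiny neuron marker score as a covariate (green). All intervals include 0, and all are narrower with the covariate, most clearly those of Penk, Tac1 and Oprd1.

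The striatal libraries of 1 treatment differed from each other in Penk, Pdyn, Tac1 and Oprd1 by 1.96-fold to 4.61-fold between the lowest and the highest. To describe this, a score was taken for each library from 11 general markers of medium spiny neurons, none of them a member. It was the median over the markers of log2(FPKM + 1), each marker centred on its mean in the striatal libraries. Among the markers were Ppp1r1b, which encodes DARPP-32, and Pde10a. The score ran from -0.96 to 0.49 in SA and from -0.98 to 0.47 in MA, with all 11 markers detected in both groups, and was lowest in MA library 5, SA library 4 and SA library 3. Across the 12 libraries it rose with Penk (Pearson r = 0.94, permutation p = 5e-05, adjusted over 8 correlations 0.00024, Spearman rho = 0.93), with Oprd1 (r = 0.92, adjusted p = 0.00024, rho = 0.85) and with Tac1 (r = 0.86, adjusted p = 0.0012, rho = 0.91). For Pdyn r was 0.72 (permutation p = 0.00812, adjusted p = 0.0162, rho = 0.71), and for Cartpt -0.43 (permutation p = 0.164, rho = -0.22). For the other receptors r was 0.61 for Oprm1 (adjusted p = 0.0548), 0.58 for Oprk1 (adjusted p = 0.0679) and 0.46 for Tacr1 (adjusted p = 0.15), while their Spearman rho was 0.74, 0.75 and 0.65 (adjusted p = 0.0125, 0.0125 and 0.0293). These 8 correlations were chosen after the values were seen. Without the 2 libraries farthest from the median score, r was 0.87 for Penk, 0.84 for Oprd1, 0.94 for Tac1 and 0.65 for Pdyn, and for Cartpt it turned to 0.26. Within SA and within MA, r was 0.98 and 0.91 for Penk (exact permutation p = 0.00556 in both), 0.99 and 0.75 for Tac1 (exact p = 0.00139 and 0.0458), and 0.94 and 0.59 for Pdyn (exact p = 0.00972 and 0.201). In bulk tissue, fewer cells of a type and less RNA per cell cannot be told apart.

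**Figure D3:**
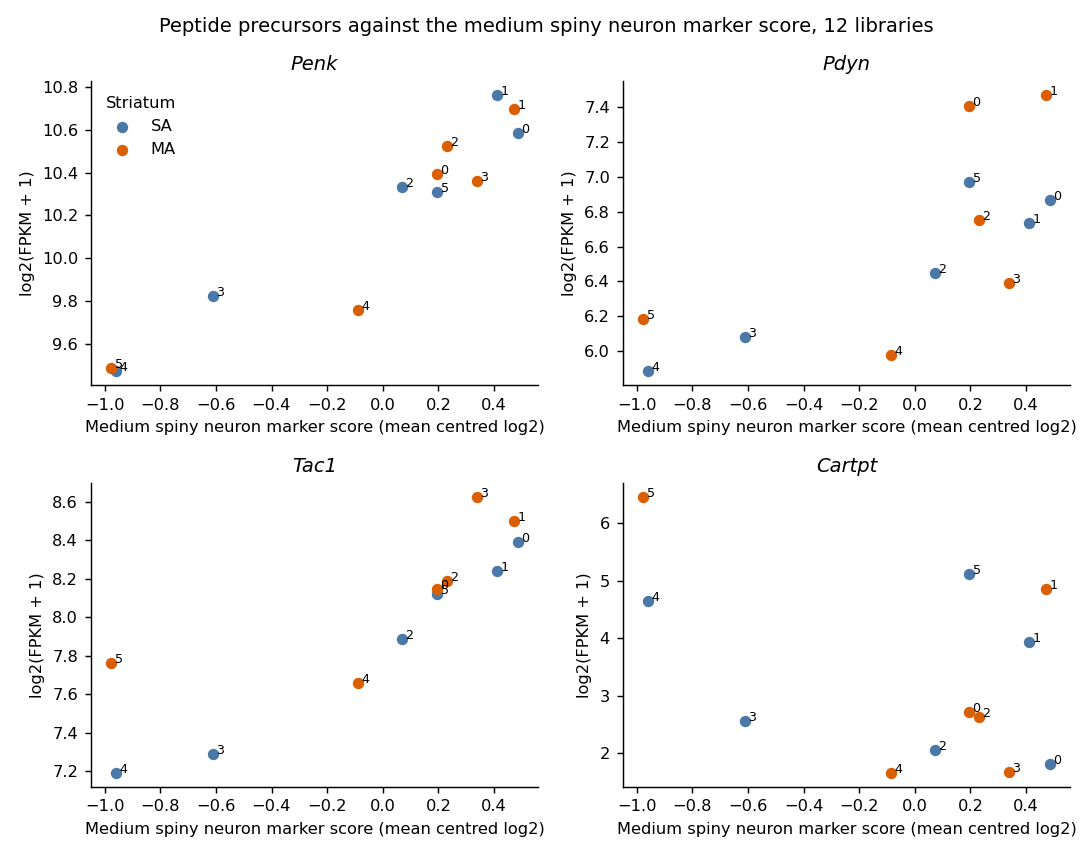
Level of each peptide precursor, as log2(FPKM + 1), against the medium spiny neuron marker score in the 12 striatal libraries, labelled by column index and coloured by treatment. Penk and Tac1 climb with the score in both treatments (r = 0.94 and 0.86), Pdyn climbs with more scatter (r = 0.72), and Cartpt does not (r = -0.43).

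The precursors also went together among themselves. Of the 14 planned pairs among the 4 precursors and between them and the dopamine receptors, the 3 pairs of Penk, Pdyn and Tac1 had r of 0.83 (Penk with Tac1, permutation p = 0.00101, adjusted p = 0.00353, rho = 0.84), 0.79 (Penk with Pdyn, adjusted p = 0.00653, rho = 0.75) and 0.72 (Pdyn with Tac1, adjusted p = 0.0157, rho = 0.69). Without the 2 libraries farthest from the median, these were 0.81, 0.73 and 0.76. Within SA, r was 0.95, 0.87 and 0.95 (exact permutation p = 0.00694, 0.0347 and 0.00972), and within MA 0.83, 0.79 and 0.56 (exact permutation p = 0.0583, 0.0806 and 0.276). Penk and Tac1 each went with both dopamine receptors. Penk, of the indirect pathway, had r of 0.94 with Drd1 and 0.91 with Drd2 (adjusted p = 0.00077 in both, rho = 0.89 and 0.84), and Tac1, of the direct pathway, had r of 0.87 with Drd1 and 0.82 with Drd2 (adjusted p = 0.00201 and 0.00426, rho = 0.84 and 0.92). Pdyn had r of 0.77 with Drd1 (adjusted p = 0.0091, rho = 0.68) and 0.59 with Drd2 (adjusted p = 0.0675, rho = 0.55). The difference between such pairs was not tested. None of the 5 pairs with Cartpt passed the threshold, with r from -0.48 to 0.08 (lowest adjusted p = 0.156), and without the 2 farthest libraries r turned to 0.42 with Penk and 0.20 with Drd2.

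Many other genes shared this variation. Of 10606 other genes, 10.6% had r of at least 0.8 with Penk, 5.05% with Tac1, 3.07% with Pdyn and 0.17% with Cartpt. Among the 5 nearest to Penk were Vps26b (r = 0.984), Nckap1, Dgkb and Sept11, and Oprd1 was in place 44 with r of 0.961. The nearest to Tac1 were Cmtm4 (r = 0.953), Pip4k2b, Meis2, Dagla and Shank2, of which Meis2 belongs to the marker score. Among the 5 nearest to Pdyn were Cabin1 (r = 0.943), Trrap, Prkca and Fkbp1a, with Oprk1, the receptor for dynorphins, in place 112 at r of 0.852. Tacr1, the receptor for substance P, was only in place 3018 for Tac1, at r of 0.427. Oprd1, which is not its receptor, was in place 282 for Tac1, at r of 0.847. The nearest to Cartpt were Dcx (r = 0.891), Rasal1, H2afy2, Pbx2 and Wibg. These values describe 12 libraries, in which all genes of a library share its cell makeup and scaling.

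Markers of neighbouring regions differed between the striatal libraries. The summed level of 7 markers of thalamus and hypothalamus was 52.3 FPKM in SA library 3 and 97.6 FPKM in SA library 4, against 5.38 to 7.11 FPKM in the other SA libraries and 6.01 to 17.3 FPKM in MA. Oxt, the oxytocin precursor, was the main part of it, with up to 73.5 FPKM in SA and up to 5.40 FPKM in MA. The oligodendrocyte list was highest in SA library 3 (15571 FPKM) and MA library 4 (14865 FPKM), where Penk was low, and 13410 FPKM in SA library 2, where Penk was near its median. Markers of cortical excitatory neurons stood out most in SA library 1 (51.4 FPKM, median 3.71 FPKM), in which Penk, Drd1, Drd2, Oprm1, Oprd1 and Tacr1 were also the highest of SA. MA library 5, with the highest Cartpt, had the lowest sum of dorsolateral striatal markers (median of MA 64.4 FPKM) and the highest sum of interneuron markers (523 FPKM, against a median of 288 FPKM). Their part in the levels of the members was not tested.

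With the marker score as a covariate, a fit added after the values were seen, the SE of the treatment difference fell from 0.25 to 0.10 for Penk, from 0.23 to 0.12 for Tac1 and from 0.24 to 0.11 for Oprd1. The differences were -0.09 for Penk (95% interval -0.31 to 0.13, adjusted p = 0.699), 0.23 for Tac1 (-0.03 to 0.48; unadjusted p = 0.0801, adjusted p = 0.426), 0.13 for Pdyn (-0.30 to 0.56, adjusted p = 0.780) and -0.09 for Oprd1 (-0.33 to 0.16, adjusted p = 0.745). For Tacr1 the difference was -0.23 (-0.55 to 0.10, adjusted p = 0.507). The SE of the other members tested fell less, for example from 0.28 to 0.20 for Pdyn. No member was called in this fit either.

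Tac1 relative to Drd1, the receptor of the same neurons, had a higher mean in MA, but not beyond the spread by every test. The ratio was 2.73, 2.35, 2.37, 2.64, 3.01 and 2.97 in SA libraries 0 to 5 and 2.99, 2.91, 3.21, 3.60, 4.54 and 3.79 in MA libraries 0 to 5. In 4 MA libraries it exceeded every SA library, and the other 2 overlapped with SA libraries 4 and 5. The mean difference was 0.38 on the log2 scale (exact p = 0.0108, one of 14 ratios of members to Drd1 or Drd2 that were computed after the values were seen), and 0.669% of all genes had an exact p under 0.05 relative to Drd1. In the limma fit of all ratios to Drd1 it was not significant (SE 0.26, unadjusted p = 0.167, adjusted p = 1.000), where 0.368% of genes had an unadjusted p under 0.05 and 0% passed after adjustment. Without SA libraries 3 and 4, an omission also chosen after the values were seen, the difference was 0.41 (exact p = 0.0238, smallest possible 0.00476). The same difference was 0.26 for Tac1 relative to Drd2 (exact p = 0.201), 0.28 for Pdyn relative to Drd1 (exact p = 0.199) and -0.04 for Penk relative to Drd2 (exact p = 0.786). Drd1 itself was 91.8 ± 32.7 FPKM in SA and 86.7 ± 30.5 FPKM in MA (SD, n = 6 each; difference -0.08, adjusted p = 0.955). The median difference of all genes relative to Drd1 was 0.083. The highest ratios of MA, in libraries 4 and 5, stood where Drd1 was lowest in MA (44.3 and 57.1 FPKM). The highest ratio of SA, in library 4, also stood at the lowest Drd1 of SA (48.1 FPKM), but SA library 3, at 58.9 FPKM, had 2.64. Whether the level of Drd1 bears on the ratio was not tested.

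The genes that process, release, degrade or transmit these peptides were examined as lists. None of their members was called, and the lists are described by counts beside all genes tested, of which 50.5% lay above 0 with a median difference of 0.0022. Of the other opioid and tachykinin peptides and receptors, 5 of 7 were tested and 2 lay above 0 (median -0.21). Among them the neurokinin 3 receptor Tacr3 had 1.89 ± 0.856 FPKM in SA and 1.09 ± 0.585 FPKM in MA (SD, n = 6 each, adjusted p = 0.607), the nociceptin receptor Oprl1 3.21 and 2.48 FPKM (adjusted p = 0.822) and Tac3, the neurokinin B precursor, 33.9 and 40.2 FPKM (adjusted p = 0.837). Of the genes for peptide processing and dense-core vesicles, 7 of 14 lay above 0 (median -0.01), and 2 had an unadjusted p under 0.05, both higher in MA, against 5.38% of all genes. These were the granule protein Scg3 (139 ± 17.4 and 192 ± 60.2 FPKM, adjusted p = 0.577) and the convertase Furin (10.3 ± 1.19 and 11.8 ± 0.315 FPKM, adjusted p = 0.597). Cpe, the carboxypeptidase that trims peptide intermediates, had 872 ± 76.3 and 1096 ± 273 FPKM (adjusted p = 0.607). Of the peptide-degrading enzymes, 6 of 12 lay above 0 (median -0.01) and none had an unadjusted p under 0.05. The examples with the smallest p were Ece1, with 10.9 FPKM in SA and 13.3 FPKM in MA (adjusted p = 0.607), Tpp2, with 8.38 and 7.49 FPKM (adjusted p = 0.706), and Anpep, with 0.893 and 1.11 FPKM (adjusted p = 0.742).

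Of the signaling partners of the receptors, 11 of 18 lay above 0 (median 0.03). Adrbk1, the G protein-coupled receptor kinase 2 that phosphorylates active receptors, had 48.8 ± 1.68 FPKM in SA and 58.6 ± 6.69 FPKM in MA (SD, n = 6 each). The lowest MA library, at 52.3 FPKM, was above the highest SA library, at 50.4 FPKM, but the difference of 0.25 (SE 0.08) was not significant after adjustment (adjusted p = 0.577). The inhibitory G protein subunits Gnai2 (163 and 195 FPKM) and Gnai3 (13.7 and 15.6 FPKM) both had an adjusted p of 0.629. Of the regulators of peptide gene transcription, 4 of 7 lay above 0 (median 0.03) and 2 had an unadjusted p under 0.05, Kcnip3 and Crem, both higher in MA, against the same 5.38% of all genes. Kcnip3 encodes DREAM, known as a repressor of Pdyn transcription, and was higher in all 6 MA libraries (20.0 to 30.9 FPKM) than in any SA library (13.9 to 19.8 FPKM). The groups of Adrbk1 and Kcnip3 thus did not overlap, as those of 0.358% of all genes. The difference for Kcnip3 was 0.58 (SE 0.11; unadjusted p = 0.000215, adjusted p = 0.577). Crem, a factor that binds cAMP response elements, had 4.12 ± 0.261 FPKM in SA and 5.38 ± 0.719 FPKM in MA (adjusted p = 0.577). Pdyn itself did not separate the groups, as given above. Of the other striatal peptides, 4 of 7 lay above 0 (median 0.08) with no unadjusted p under 0.05. Npy, whose symbol has 2 rows, was listed at 0 throughout MA, though not throughout SA, in the row used. The other row of Npy was not used, so this 0 is no reading of its level in MA. In the same libraries, microglial markers lay above 0 in 8 of 8 genes (median 0.48), astrocyte markers in 7 of 8 (median 0.32) and erythrocyte markers in 3 of 3 (median 1.22). Markers of endothelial cells and pericytes did so in 7 of 7 (median 0.24). The medium spiny neuron markers of the score did so in 9 of 11 (median 0.10). Oligodendrocyte markers went the other way, with 3 of 8 above 0 (median -0.23). Whether these differences bear on the pathway genes was not tested.

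**Figure D4:**
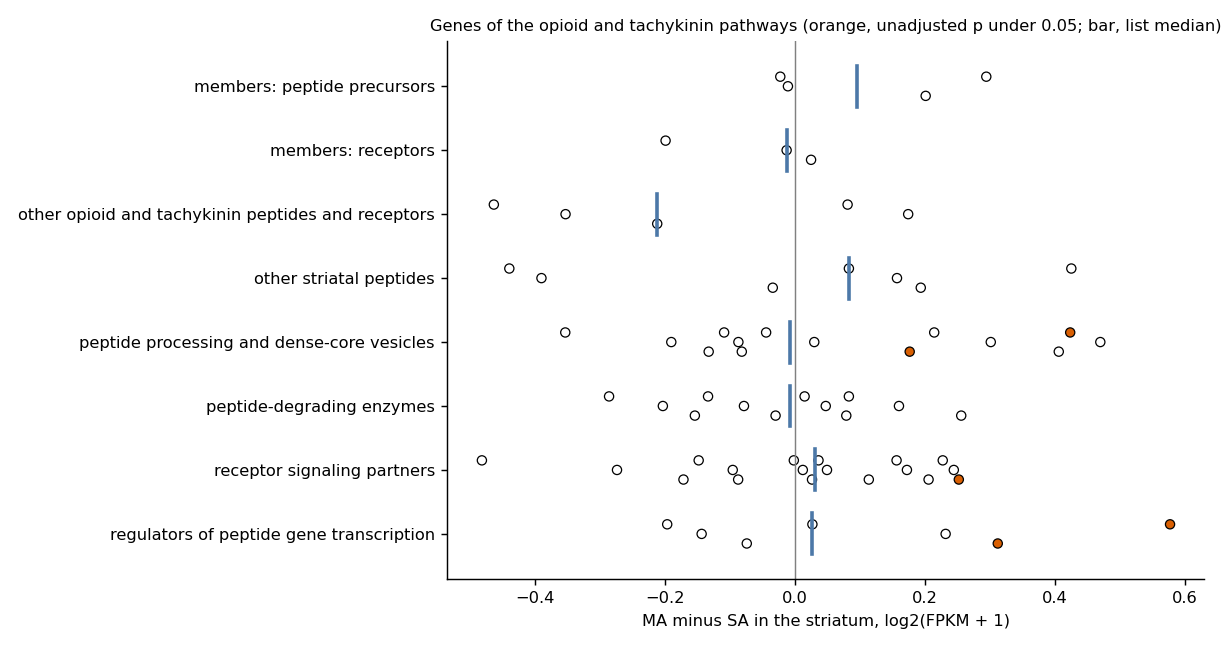
Difference between MA and SA in the striatum, on the log2(FPKM + 1) scale, for the tested genes of each list (points, orange where the unadjusted p was under 0.05) with the median of the list (blue bar). Orange points are Scg3 and Furin, Adrbk1, and Kcnip3 and Crem, and none passed after adjustment over all genes.

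In whisker follicles the members were at or near 0. Cartpt, Oprm1, Oprk1 and Tacr1 were listed at 0 in all 12 follicle libraries. A value of exactly 0 may also be a failed estimate, as the housekeeping gene Hprt1 was listed at 0 in 21 of the 24 libraries in 1 of its 2 rows. The housekeeping genes checked that have a single row, as the members do, were never listed at 0 (for example Actb, Gapdh and Tbp). Penk was listed above 0 in 4 of 6 SA libraries and 3 of 6 MA libraries, Pdyn and Tac1 in 1 library of each group and Oprd1 in 1 of each. No member had a mean of 1 FPKM in follicles, so none was among the 9138 genes that limma compared there between MA and SA, of which 0% were called (10.4% had an unadjusted p under 0.05). With no limit on low levels, the 4 members listed above 0 were fitted and none was called, with a difference of -0.37 for Penk (SE 0.43, adjusted p = 0.734, exact p = 0.706). The highest follicle values of the precursors were in SA library 5, with 6.43 FPKM for Penk, 1.39 FPKM for Tac1 and 0.254 FPKM for Pdyn. The other 11 follicle libraries did not exceed 0.677 FPKM for Penk and 0.218 FPKM for Tac1. In SA library 5 the oligodendrocyte list summed to 80.1 FPKM, against 11.7 to 15.3 FPKM in the other follicle libraries, and the indirect pathway list to 2.06 FPKM, against at most 0.663 FPKM. Keratinocyte markers summed to 95384 FPKM there, the highest of SA. Whether these transcripts of neural cells bear on its peptide levels was not tested.

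Set against follicles in SA rats, 6 members passed the limit on low levels (Penk, Pdyn, Tac1, Cartpt, Oprk1 and Tacr1) and all 6 were called higher in the striatum, against 42.5% of the 10952 genes tested, with adjusted p from 3.60e-13 for Pdyn to 2.42e-05 for Cartpt. They passed the limit through their striatal levels, so the count is a description. Libraries of the tissues did not overlap for these members, as for 38.6% of all genes tested in the same direction. Oprd1 and Oprm1 had striatal SA ranges of 0.552 to 2.54 and 0.312 to 0.935 FPKM, against follicle values of at most 0.137 FPKM and a listed 0. The summed FPKM of a library was 348717 to 418892 in the striatum and 774567 to 1524572 in follicles, and the levels above were compared across tissues as deposited, without a common scaling. The same 6 members entered the interaction test of the MA effect between tissues, again through their striatal levels, and none passed. In this test 0.00910% of 10985 genes were called and 11.4% had an unadjusted p under 0.05. The interaction was 0.36 for Penk (SE 0.51, adjusted p = 0.775), 0.22 for Pdyn (SE 0.30, adjusted p = 0.764) and 0.46 for Tac1 (SE 0.32, adjusted p = 0.541). Without SA library 5 of the follicles it was -0.11 for Penk and 0.25 for Tac1. Cartpt, Oprk1 and Tacr1 were listed at 0 in all follicle libraries, so that their interaction was the striatal difference itself.

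**Figure D5:**
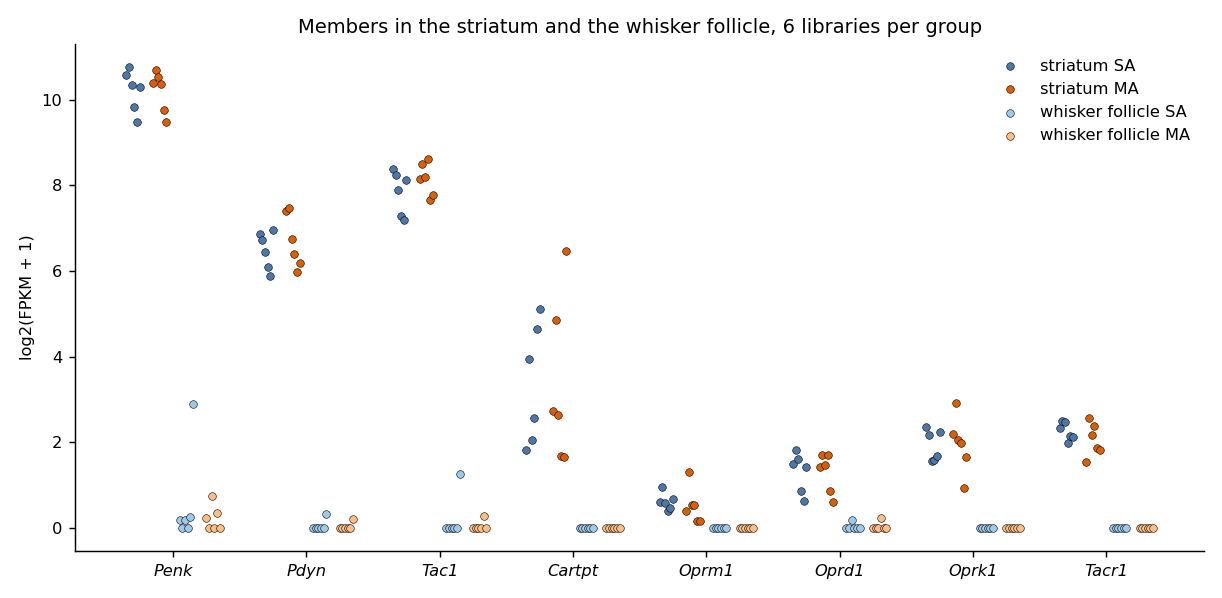
Level of each member as log2(FPKM + 1) in the 4 groups of 6 libraries, each point a library. Striatal values stand above the follicle values of the same member, which lie at or close to 0 apart from Penk and Tac1 in SA library 5 (6.43 and 1.39 FPKM).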

How the data were processed

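RNA was captured by poly-A selection (TruSeq) and sequenced as paired ends. The authors computed and deposited FPKM for 17711 rows. The paper names Cutadapt, TopHat2, rn6 and Cufflinks, the submitters' processing notes STAR 2.6.0c, Cufflinks 2.2.1 and rn6, and the annotation is not given in the sources used here. Read counts were not used here, so depth and counting error are unknown. Libraries are separate rats of a group according to the labels, but their columns carry no rat number. Of 17287 symbols, 537 have more than 1 row, no member among them, and 4 list genes, for which 1 row was used.

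MA and SA were compared by limma 3.58.1 in R 4.3.3 with a trend on intensity. Values were taken as log2(FPKM + 1), a scale that understates changes of low genes, and genes below a mean of 1 FPKM in the compared libraries were left out. Calls needed a fold of 1.5 or more and p under 0.05 after Benjamini-Hochberg adjustment. Single genes were tested by exact permutation, correlations by 100000 permutations (SciPy 1.17.1), all two-sided. The fit was tested on simulated data. The members and lists were chosen with earlier results of these data known. Named genes are the members, the anchors (Drd1, Drd2, Adora2a, Ppp1r1b, Kcnip3), up to 3 genes with the smallest p per list and the 5 nearest genes of each precursor, of which some are not reported here. Other genes (Oxt, Hprt1, Npy) were named after their values were seen. Promoters came from RefSeq (GRCr8), and no genome of the build of the table was used. Cuffdiff, the test in the paper, needs reads and was not run. By it the paper reports more genes in both tissues at like limits, so the counts of genes called here are those of limma on FPKM.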

Additional observations from a re-analysis of the deposited data

Results flagged for a closer look

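Within a group of 6 libraries, a value was singled out where its gap to the next library took up more of the range of the group than the critical value of Dixon's test for 6 values, which chance alone gives in about 1 group in 20 for normally distributed values. Where 5 libraries are listed at 0, a single value above 0 is always singled out, which was the case for 6 of these 9 values. Most of these values are in whisker follicles, where the other libraries of the group were listed at or near 0. SA library 5 of the follicles stood apart with 6.43 FPKM for Penk (next 0.193 FPKM), 1.39 FPKM for Tac1 and 0.254 FPKM for Pdyn, the other 5 libraries being listed at 0 for the latter 2. Pdyn was at 0.156 FPKM in MA library 5 and Tac1 at 0.218 FPKM in MA library 4. Oprd1 was at 0.137 FPKM in SA library 2 and at 0.175 FPKM in MA library 3. In the striatum, Cartpt reached 87.6 FPKM in MA library 5 and Oprm1 reached 1.45 FPKM in MA library 1 (next 0.457 FPKM).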

How the results depend on the processing

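No member of the striatum was called, or had an unadjusted limma p under 0.05, in any alternative, whereas the exact p of Tac1 relative to Drd1 was 0.0108. The lowest adjusted p was 0.390 for Tacr1 and 0.426 for Tac1. Tacr1 stayed below 0 in all alternatives. Tac1 and Pdyn stayed above 0 in all but 1, the omission of SA libraries 3 and 4. The near-zero differences of Penk, Oprd1, Oprk1 and Cartpt changed sign in several. Penk was 0.027 with weighted libraries and 0.070 relative to Drd1, and Oprd1 0.019 after quantile normalization and 0.068 relative to Drd1. Oprk1 was -0.011 with a pseudocount of 0.1, -0.029 with the marker score and -0.0093 relative to Drd2. Cartpt was 0.10 with the marker score, 0.058 relative to Drd1, 0.66 as a ratio of mean FPKM and 8.01 FPKM as a difference of means. Without MA libraries 3 and 4, Penk was 0.061 and Cartpt 0.81. Without SA libraries 3 and 4, Penk was -0.29, Oprd1 -0.29, Tacr1 -0.29, Pdyn -0.056, Tac1 -0.012, Cartpt 0.10 and Oprk1 -0.13. Leaving out each library in turn gave -0.16 to 0.13 for Penk, -0.65 to 0.33 for Cartpt, -0.15 to 0.12 for Oprd1, -0.17 to 0.23 for Oprk1, 0.046 to 0.34 for Pdyn (lowest without MA library 1, highest without MA library 4), 0.16 to 0.40 for Tac1 (lowest without SA library 4, highest without SA library 0), -0.30 to -0.094 for Tacr1 (lowest without MA library 1, highest without MA library 0) and -0.11 to 0.50, 0.25 to 0.56 and 0.066 to 0.36 for the interactions of Penk, Tac1 and Pdyn. The interactions of Penk and Tac1 were lowest without follicle SA library 5, that of Pdyn without striatal MA library 1. The 1 gene called over the whole striatum was lost (0 genes) at a mean of at least 5 FPKM, without MA libraries 3 and 4 and without SA libraries 3 and 4, and 0 to 4 genes were called with 1 library left out, 4 without MA library 5. In follicles, 1160 genes were called with weighted libraries and 0 to 1219 with 1 library left out, 1219 without SA library 0. For the interaction the counts were 2 with a pseudocount of 0.1, 3 with no limit on low levels, 0 at a mean of at least 5 FPKM, 1389 with weighted libraries and 1 to 1240 with 1 library left out. The cause was not tested. The 6 members called against follicles stayed called in each alternative in which they were tested. No paired analysis was possible because the columns' index of 0 to 5 is not tied to the rat numbers in the labels, so the tissues of a rat could not be joined. The covariate, the ratios and the omission of SA libraries 3 and 4 were chosen after seeing the data.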
